A study of Danio rerio with 6 samples.

Results

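The Hox genes encode homeodomain transcription factors that give positions along the head-to-tail axis their identity. They lie in clusters, and their order within a cluster matches where they act: genes of low paralogue number work in the hindbrain and anterior trunk, those of middle number in the trunk, and those of high number in the tail, the fins and the hindgut and urogenital openings. Zebrafish kept extra clusters from a genome duplication, so that several genes exist as a and b copies.

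Here the Hox genes were followed in poly-A RNA sequencing of whole zebrafish, Danio rerio, each library made from 1 embryo of 30 hours post fertilisation (hpf). All genes of the count table whose symbol is hox, a cluster letter from a to d, a paralogue number and a duplicate letter were taken, which gave 48 of 32057 genes. The groups were 3 embryos labelled 3etv and 3 embryos labelled wild type (WT), each embryo sequenced as its own library. The series describes 3etv as triple mutants of the Pea3 factors, ETS transcription factors that act downstream of fibroblast growth factor signalling. The labels leave the identity of the 3 genes and of their alleles unstated, and give no strain, parents or clutch, so p-values measure the spread between these single embryos.

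The libraries held between 17570505 and 19600706 counts in genes in 3etv and between 21516892 and 25512862 in WT, so every mutant library was shallower. The running numbers in the sample descriptions list the WT embryos before the mutants, and an effect of that order and the genotype cannot be told apart. Of the Pea3 genes, etv4, etv5a and etv5b fell in 3etv, by 0.48, 1.01 and 1.34 on the log2 scale (without mutant embryo 2, etv4 had an adjusted p of 0.0502 in edgeR), and etv1 had a log2 fold change of 0.28 that was not called. Their transcripts were thus still present in the libraries labelled 3etv, and what the mutations do to the proteins was not measured. Levels below are CPM, counts relative to library size after TMM scaling, and a log2 fold change is that of 3etv over WT. The quasi-likelihood test of edgeR was run on 19889 genes, and a gene was called where its Benjamini-Hochberg adjusted p was below 0.05.

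Few Hox genes were called different between the genotypes. All 48 passed the filter on low counts, and 5 were called (10.4%), against 26.0% of all tested genes. The genes hoxa4a, hoxb5b and hoxc6b rose, where 12.6% of all genes were called higher. The genes hoxd11a and hoxd13a fell, where 13.5% of all genes were called lower. The ranges of the 2 groups did not overlap for 9 members (18.8%), against 42.9% of all genes, and 5 of the 48 (10.4%) were lower in 3etv without overlap, against 21.2% of all genes. Both shares were below those of all genes. At an unadjusted p under 0.05 in the same edgeR test there were 14 members (29.2%), against 39.1% of all genes. In whole embryos, fewer cells that express a gene and less RNA per cell cannot be told apart.

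The precision bounded most of the others only within 1 on the log2 scale. That is wider than the change of every called member but hoxd13a. The standard error (SE) of a member's log2 fold change lay between 0.0878 and 0.356. Of the 43 members that were not called, 40 had a 95% confidence interval within 1 of no change on the log2 scale, and 21 had one within 0.5. The 3 with wider intervals were hoxa11a, hoxc12a and hoxc13a, whose lower limits were -1.08, -1.03 and -1.27. Intervals within 0.5 were held by 13 of the 22 uncalled members of groups 1 to 8. In groups 11 to 13 this was so for 1 of 12. The counts behind the members ran from 7 to 3976 per embryo.

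The fold changes of groups 1 to 8 and of groups 9 to 13 lay mostly on opposite sides of 0. Of the 25 members numbered 1 to 8, 20 had a log2 fold change above 0, and of the 23 members numbered 9 to 13, 22 had one below 0; with library totals in place of TMM scaling these counts were 18 and 23. Most of these differences were small and not called one by one. The median log2 fold change was 0.13 for the 13 members of groups 1 to 4, 0.20 for the 12 members of groups 5 to 8, and -0.30 for the 23 members of groups 9 to 13, against -0.0068 over all tested genes. Over all 48 members the median was -0.06, and 56.3% were below 0, against 50.7% of all genes. Within groups 1 to 8 the medians did not fall with the number. Across genes, Spearman's rho between fold change and paralogue number was -0.70 and Pearson's r was -0.60 (n = 48); the genes share the same 6 libraries and are not independent, so no p is given.

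**Figure D1:**
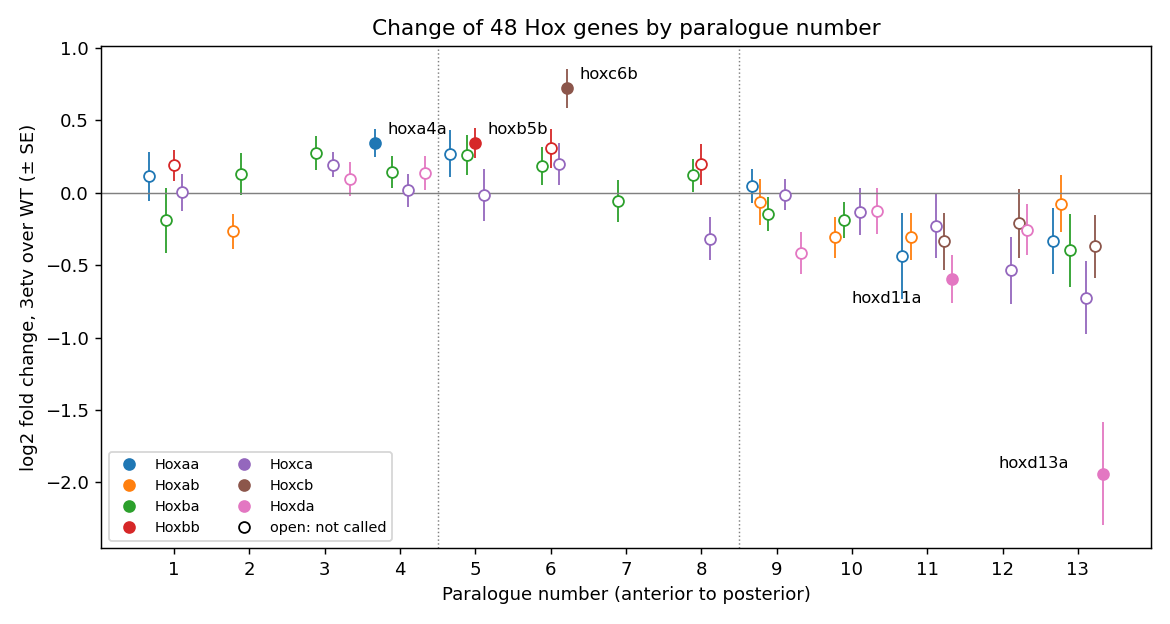
Log2 fold change of 3etv over WT (vertical axis, ± SE) for each of 48 Hox genes against paralogue number (horizontal axis), coloured by cluster, with filled points for genes called at an adjusted p under 0.05. Most points of groups 1 to 8 lie above 0, nearly all of groups 9 to 13 lie below it, and hoxd13a stands lowest at -1.94.

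The posterior genes are described first. The gene hoxd13a is the last gene of the Hoxda cluster, and Hox13 factors shape the outermost fin skeleton in zebrafish and the digits, hindgut and genital region in mouse. It had 26, 15 and 7 counts in 3etv embryos 1 to 3, against 54, 101 and 83 in the WT embryos. As levels these were 1.31, 0.884 and 0.382 CPM in 3etv, against 2.49, 3.93 and 3.59 CPM in WT. Every mutant embryo lay below every WT embryo.

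The mean of hoxd13a was 0.860 ± 0.466 CPM in 3etv and 3.33 ± 0.754 CPM in WT (SD, n = 3 each), 3.84-fold lower in 3etv. The log2 fold change was -1.94 ± 0.356 (SE), with an edgeR quasi-likelihood adjusted p of 0.00212. It was the largest change of any Hox gene in either direction, and it stayed called without each embryo in turn. Mutant embryo 3 had the lowest value, and without it the gene was 2.99-fold lower (adjusted p = 0.00568).

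The gene hoxd11a, a neighbour of hoxd13a whose mouse counterpart acts in the forearm and kidney, had 90, 98 and 80 counts in 3etv, against 155, 192 and 175 in WT. Its levels were 4.54, 5.78 and 4.37 CPM in 3etv, against 7.13, 7.47 and 7.57 CPM in WT. All 3 mutants were again below all 3 WT embryos, and the WT embryos lay close together. The means were 4.90 ± 0.768 CPM in 3etv and 7.39 ± 0.228 CPM in WT (SD, n = 3 each), and the log2 fold change was -0.60 ± 0.166 (SE; edgeR adjusted p = 0.0196). The call was lost without mutant embryo 1 (adjusted p = 0.0618), mutant embryo 3 (0.0704) or WT embryo 3 (0.0586).

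Next in line were members that just missed the threshold, picked here after their values were seen. The gene hoxc13a had 11.3, 8.96 and 4.31 CPM in 3etv, against 11.7, 12.99 and 15.9 CPM in WT. Its groups did not overlap, but mutant embryo 1 lay next to the lowest WT embryo. The log2 fold change was -0.72 ± 0.254 (SE; edgeR adjusted p = 0.0522). It was called by the DESeq2 Wald test (adjusted p = 0.0186) and limma-voom (0.0353), and by edgeR with no low-count filter (0.0111) or without mutant embryo 1 (0.0153). The gene hoxd9a had 14.4, 18.2 and 13.3 CPM in 3etv, against 17.6, 23.9 and 19.6 CPM in WT. Its ranges overlapped through mutant embryo 2, and the log2 fold change was -0.42 ± 0.147 (SE; edgeR adjusted p = 0.0531). It was called without mutant embryo 2 (adjusted p = 0.0304) or WT embryo 1 (0.0302), and also by the DESeq2 Wald test (0.0492), with library totals (0.0316), with no low-count filter (0.0316) and with the replicate block (0.0291). On the side of the called genes, the one nearest the threshold was hoxb5b, given below.

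**Figure D2:**
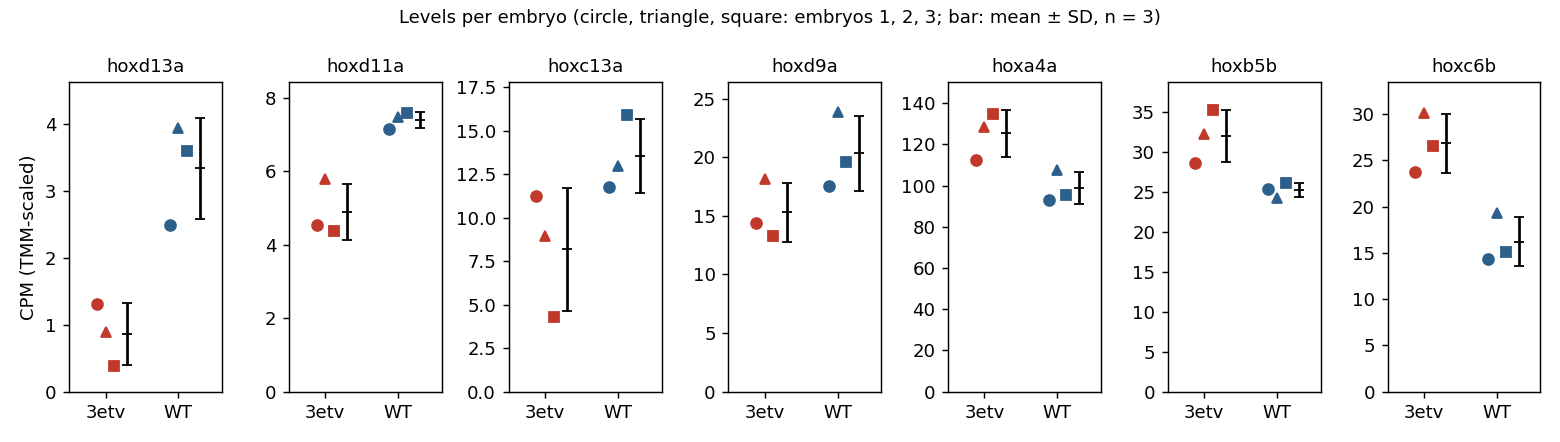
CPM (vertical axes from 0, one per gene) in each 3etv embryo (left) and each WT embryo (right) for the 5 called Hox genes and for hoxc13a and hoxd9a; bars are mean ± SD, n = 3. The groups are apart for all of them but hoxd9a, where the highest mutant lies above the lowest WT embryo.

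The other posterior members lay lower in 3etv by amounts within or near the spread. All 14 members of groups 11 to 13, the genes of the tail end, had a log2 fold change below 0, with a median of -0.35. The 9 members of groups 9 and 10 were closer to 0, with a median of -0.13 and 8 of 9 below 0. This finer division was made after the values were seen. The exception was hoxa9a, with 13.1, 13.4 and 14.3 CPM in 3etv, against 12.01, 13.6 and 13.9 CPM in WT, and a log2 fold change of 0.05 ± 0.1202 (SE; edgeR adjusted p = 0.807) that turned to -0.031 with library totals. In group 13 the fold changes of the 6 members ran from -1.94 for hoxd13a to -0.07 for hoxa13b, which had 3.89, 3.60 and 2.95 CPM in 3etv, against 3.41, 3.77 and 3.81 CPM in WT. The gene hoxb13a had 5.55, 4.42 and 2.73 CPM in 3etv, against 4.23, 5.72 and 6.79 CPM in WT, and hoxa13a had 6.61, 4.30 and 3.49 CPM in 3etv, against 5.89, 5.25 and 7.09 CPM in WT. In both genes the groups overlapped, and mutant embryo 3 was the lowest of the 6 embryos. No member of groups 9 to 13 was called higher in edgeR, DESeq2 or limma-voom. At an unadjusted p under 0.05 in edgeR, none was higher and 6 of 23 were lower. That share, 26.1%, was below the 39.1% of all genes in either direction.

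The posterior pattern was uneven among the mutants. Mutant embryo 3 was the lowest mutant in 19 of the 23 genes of groups 9 to 13 and in all 14 of groups 11 to 13. It was the lowest mutant in 0 of the 13 genes of groups 1 to 4 and the highest in 7 of them. The median deviation of the 14 genes of groups 11 to 13 from the WT mean, as log2(CPM + 0.5), was -0.11, -0.22 and -0.70 in mutant embryos 1 to 3, against -0.21, 0.05 and 0.15 in the WT embryos. Mutant embryo 1 was therefore inside the WT range, mutant embryo 2 just below it, and mutant embryo 3 far below it. Over groups 9 to 13 the median deviation was -0.23, -0.06 and -0.59 in the mutants, against -0.19, 0.11 and 0.05 in WT. There mutant embryo 2 was inside the WT range.

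Without mutant embryo 3 the median log2 fold change was -0.14 for groups 9 to 13, with 18 of 23 members below 0, and -0.15 for groups 11 to 13, with 12 of 14 below 0. The anterior groups kept their sign without it, with medians of 0.07 for groups 1 to 4 and 0.16 for groups 5 to 8. Of the 5 calls, those of hoxd13a and hoxc6b held without it, while the share of all genes called went from 26.0% to 17.1%. Leaving out WT embryo 2 also gave 18 of 23 members of groups 9 to 13 below 0, with a median of -0.28. All 14 members of groups 11 to 13 were then below 0.

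**Figure D3:**
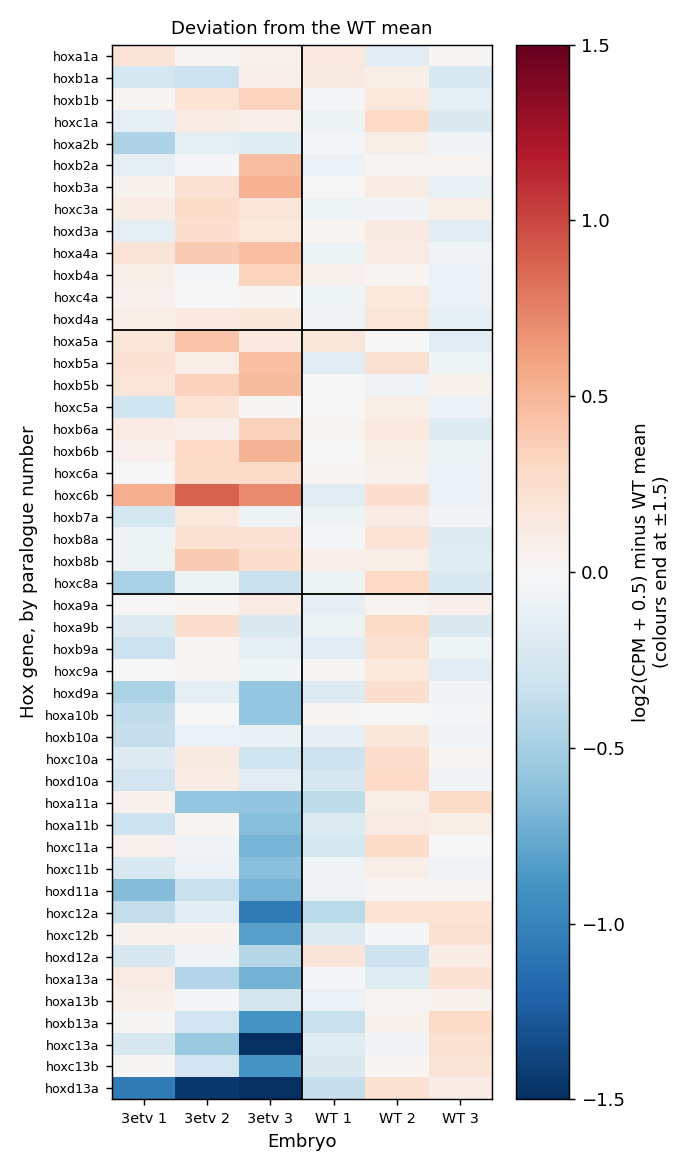
Deviation of each embryo (columns, 3etv left and WT right) from the WT mean on the log2(CPM + 0.5) scale for 48 Hox genes (rows, ordered by paralogue number; lines part groups 1 to 4, 5 to 8 and 9 to 13). Most of the deep blue lies in the bottom rows of mutant embryo 3, while hoxd13a is blue in all 3 mutants and hoxc6b red in all 3.

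The levels were also summed over the genes of each group. The 14 genes of groups 11 to 13 summed to 94.0, 92.7 and 58.5 CPM in 3etv, against 95.1, 112 and 120 CPM in WT. The mutants were all below the WT embryos, 2 of them narrowly. The means were 81.7 ± 20.1 CPM in 3etv and 109 ± 12.9 CPM in WT (SD, n = 3 each). Summed over groups 9 to 13, the levels were 286, 329 and 259 CPM in 3etv, against 305, 377 and 341 CPM in WT. These sums overlapped through mutant embryo 2. The sums of groups 1 to 4 were 616, 697 and 755 CPM in 3etv, against 592, 667 and 571 CPM in WT, and those of groups 5 to 8 were 240, 289 and 288 CPM in 3etv, against 235, 269 and 219 CPM in WT. Both overlapped. The total over all 48 genes was 1142, 1316 and 1302 CPM in 3etv, against 1133, 1313 and 1131 CPM in WT, also overlapping.

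The ratio of groups 9 to 13 to groups 1 to 4 within an embryo does not depend on how libraries are scaled. It was 0.464, 0.472 and 0.343 in 3etv, against 0.515, 0.566 and 0.596 in WT. Every mutant was below every WT embryo, and mutant embryos 1 and 2 lay close together. Groups 9 to 13 held 25.0%, 25.0% and 19.9% of all Hox CPM in 3etv, against 26.9%, 28.7% and 30.1% in WT. For groups 11 to 13 alone, the ratio to groups 1 to 4 was 0.153, 0.133 and 0.0775 in 3etv, against 0.161, 0.168 and 0.211 in WT, with mutant embryo 1 just under the lowest WT embryo. These sums weigh the abundant genes most and were not tested.

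**Figure D4:**
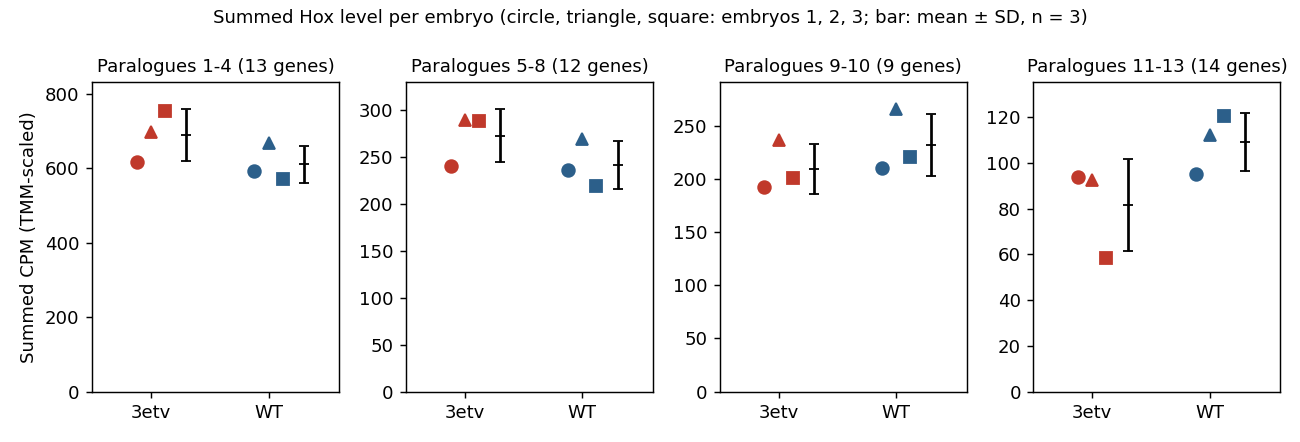
Summed CPM (vertical axes from 0) of Hox genes of groups 1 to 4, 5 to 8, 9 to 10 and 11 to 13 in each 3etv embryo (left) and each WT embryo (right); bars are mean ± SD, n = 3. The groups overlap in the first 3 panels, and in the last the mutants lie at 94.0, 92.7 and 58.5 CPM, below the WT embryos.

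Among the genes of the trunk, hoxc6b changed most. Its mouse counterpart Hoxc6 marks the forelimb level of the spinal cord. It had 471, 511 and 487 counts in 3etv, against 311, 495 and 349 in WT. Its levels were 23.8, 30.1 and 26.6 CPM in 3etv, against 14.3, 19.2 and 15.1 CPM in WT. No mutant overlapped a WT embryo. The means were 26.8 ± 3.18 CPM in 3etv and 16.2 ± 2.65 CPM in WT (SD, n = 3 each), 1.65-fold higher in 3etv, and the log2 fold change was 0.72 ± 0.134 (SE; edgeR adjusted p = 0.00228). It stayed called without each embryo in turn.

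The gene hoxb5b responds to retinoic acid in the zebrafish forelimb field. It had 567, 546 and 644 counts in 3etv, against 550, 623 and 602 in WT. Scaled to the library, this was 28.6, 32.2 and 35.1 CPM in 3etv, against 25.3, 24.2 and 26.0 CPM in WT. The raw counts overlapped, and the scaled levels did not. The log2 fold change was 0.34 ± 0.102 (SE; edgeR adjusted p = 0.0266), and the adjusted p lay between 0.0519 and 0.104 without mutant embryo 2 or 3 or without any 1 WT embryo, and at 0.0172 without mutant embryo 1. With library totals in place of TMM it was 0.0749.

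In the anterior groups only hoxa4a was called, a group 4 gene; such genes act from the posterior hindbrain backwards. It had 2231, 2182 and 2469 counts in 3etv, against 2026, 2770 and 2204 in WT, which gave 113, 129 and 135 CPM in 3etv, against 93.2, 108 and 95.3 CPM in WT. Every mutant was above every WT embryo once scaled. The log2 fold change was 0.34 ± 0.0959 (SE; edgeR adjusted p = 0.0202). The adjusted p was 0.0646 without mutant embryo 2, 0.0782 without mutant embryo 3, 0.0588 without WT embryo 1 and 0.0745 without WT embryo 3.

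The remaining anterior and middle genes were nearer to no change. The gene hoxb3a, of the group that acts in the posterior hindbrain, had 148, 166 and 205 CPM in 3etv, against 143, 155 and 133 CPM in WT, with a log2 fold change of 0.27 ± 0.115 (SE; edgeR adjusted p = 0.0978). Its ranges overlapped, mutant embryo 3 was the highest, and without mutant embryo 1 the gene was called (adjusted p = 0.0356). The gene hoxb1a, known for giving the fourth hindbrain segment its identity, had 2.47, 2.36 and 3.27 CPM in 3etv, against 3.41, 3.31 and 2.55 CPM in WT, with a log2 fold change of -0.19 ± 0.227 (SE; adjusted p = 0.570). Of the members of groups 1 to 8 below 0, 2 were farthest from it. The gene hoxa2b, which patterns the second pharyngeal arch, had 13.7, 17.4 and 16.8 CPM in 3etv, against 18.7, 20.4 and 18.5 CPM in WT, without overlap, but its adjusted p in edgeR was 0.122. The gene hoxc8a, of the posterior trunk, had 20.1, 26.9 and 22.3 CPM in 3etv, against 27.0, 35.0 and 24.1 CPM in WT, and its adjusted p in edgeR was 0.127. No member of groups 1 to 8 was called lower in edgeR, DESeq2 or limma-voom, while these 2 were lower at an unadjusted p under 0.05 in edgeR. With library totals hoxa2b was called lower (adjusted p = 0.0493).

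By cluster, the members called lower were both in Hoxda. Where 13.5% of all genes were called lower, nothing is read from 2 of the 7 members of this cluster. Its fold changes were 0.09 for hoxd3a and 0.14 for hoxd4a at the anterior end, then -0.42 for hoxd9a, -0.13 for hoxd10a, -0.60 for hoxd11a, -0.26 for hoxd12a and -1.94 for hoxd13a. The step along the cluster was thus not even, since hoxd10a and hoxd12a lay closer to 0 than hoxd9a and hoxd11a. The gene evx2, an even-skipped homeobox gene next to hoxd13a, lay the other way. It had 7.98, 9.37 and 14.6 CPM in 3etv, against 7.96, 8.40 and 7.53 CPM in WT, with a log2 fold change of 0.42 ± 0.198 (SE; edgeR adjusted p = 0.140). Mutant embryo 3 was the highest for evx2 and the lowest for hoxd13a, while for evx2 mutant embryo 1 lay within the WT range and mutant embryo 2 above it. Without mutant embryo 1, evx2 was called higher (adjusted p = 0.0422). The gene eve1, which flanks Hoxba and is counted below as a tailbud marker, did not share this direction. It had 2.12, 2.59 and 1.04 CPM in 3etv, against 2.12, 1.94 and 3.16 CPM in WT. The groups overlapped, and the log2 fold change was -0.33 ± 0.327 (SE, edgeR adjusted p = 0.490).

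**Figure D5:**
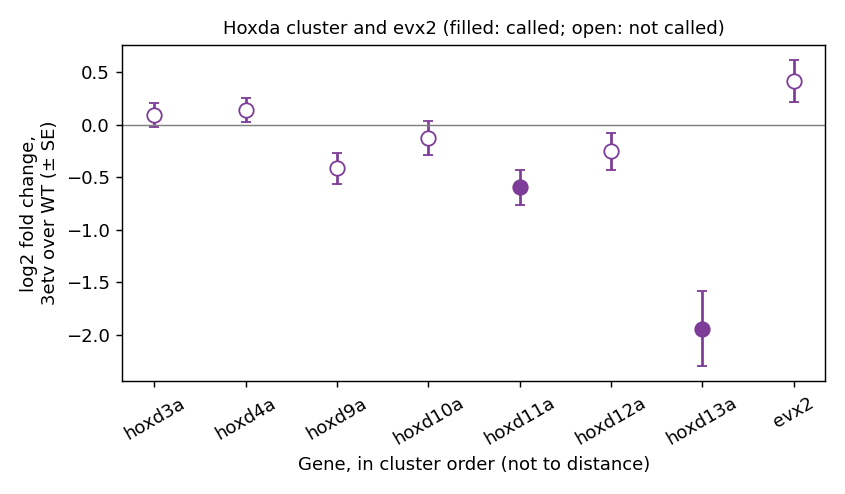
Log2 fold change of 3etv over WT (vertical axis, ± SE) for the 7 Hoxda genes in cluster order and the neighbouring evx2 (horizontal axis, not to distance). Called genes are filled; hoxd13a lies lowest at -1.94, while evx2 beside it lies at 0.42.

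In Hoxab all 5 members were below 0, with a median of -0.27, and in Hoxbb all 4 were above 0, with a median of 0.25. Hoxab holds mostly posterior genes and Hoxbb only genes of groups 1 to 8, so cluster and paralogue number go together here. Hoxba had 6 of 11 members above 0 and Hoxca 4 of 11, and in both clusters the edgeR test called 0 members. At an unadjusted p under 0.05 there were 1 in Hoxba (9.1%) and 4 in Hoxca (36.4%), against 39.1% of all genes. DESeq2 and limma-voom called hoxc13a of Hoxca lower. In Hoxcb the 3 posterior members were below 0 and hoxc6b was above it. Hoxaa had 4 of 6 members above 0, with hoxa4a called.

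There were 11 gene pairs in which both duplicates were measured. In 9 pairs the duplicates had fold changes of the same sign. The exceptions were hoxa9a at 0.05 with hoxa9b at -0.06, and hoxb1a at -0.19 with hoxb1b at 0.19, none of them called. The pairs of hoxa11, hoxa13, hoxc11, hoxc12 and hoxc13 belong to groups 11 to 13, where all 14 members lay below 0. The shared signs are therefore not a result apart from the pattern by paralogue number. In 2 pairs 1 copy was called and the other was not. For hoxc6 the log2 fold change was 0.72 for the b copy and 0.20 for the a copy, and for hoxb5 it was 0.34 for the b copy and 0.26 for the a copy. The difference between the copies was not tested. Some counts are uncertain. In RefSeq's annotation of assembly GRCz12tu, 15 of the 48 genes have a span that overlaps another Hox gene, hoxb5b among them. All of these but hoxc9a are of groups 1 to 8, whose fold changes lay mostly above 0. Whether counting used strand is not given, and an effect of shared reads on those fold changes was not tested.

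Hox proteins bind DNA with partners of the Pbx, Meis and Pknox families. Of 14 names in a list of these partners, 13 were in the table as 14 entries, because meis2a stands there under 2 identifiers. Of the 14 entries, 3 rose, where 12.6% of all genes were called higher, and with so few entries nothing is read from that count. In edgeR, DESeq2 or limma-voom 0 were called lower, and 1 was lower at an unadjusted p under 0.05 in edgeR. The median log2 fold change of the 14 entries was 0.11, against -0.0068 over all genes. The gene pbx3b changed most, with 37.9, 51.9 and 59.0 CPM in 3etv, against 18.5, 19.8 and 17.0 CPM in WT. All mutants were far above the WT embryos, and the log2 fold change was 1.43 ± 0.144 (SE; edgeR adjusted p = 3.7e-05). The genes pbx1a and meis3 rose by 0.43 and 0.29 on the log2 scale, with edgeR adjusted p of 0.00610 and 0.0274. The call of meis3 was lost without mutant embryo 2, mutant embryo 3 or WT embryo 3 and with library totals, with adjusted p between 0.0648 and 0.105.

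A list of 8 homeobox genes related to the Hox clusters or upstream of them gave 7 tested entries, of which 2 rose and 1 fell, where 12.6% of all genes were called higher and 13.5% lower. The caudal factor cdx4, which activates posterior Hox genes in the zebrafish tail, fell, and its part in their lower values here was not tested. It had 100, 110 and 82 counts in 3etv, against 198, 348 and 201 in WT, and 5.05, 6.48 and 4.47 CPM in 3etv, against 9.11, 13.5 and 8.70 CPM in WT. The groups did not overlap, and the log2 fold change was -0.98 ± 0.204 (SE; edgeR adjusted p = 0.00442). The ParaHox genes gsx1 and gsx2, which act in the developing brain and spinal cord, rose by 0.76 and 0.55 on the log2 scale (edgeR adjusted p = 6.7e-04 and 0.00691). Neither the second evx1 entry, at 0 in every embryo, nor cdx1b was tested. The 5 entries of mir196 microRNA genes, which lie inside Hox clusters, were at or near the floor and none was tested; poly-A libraries measure microRNA precursors poorly.

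The genes that flank the clusters gave 43 tested entries, of which 6 rose and 2 fell (18.6%, against 26.0% of all genes), with a median log2 fold change of 0.09. Both that fell lie beside Hoxda: agps at -0.43 (edgeR adjusted p = 0.0411) and an entry of lnpa at -0.51 (0.0208). The other lnpa entry lay at 0.23 and was not called, and nfe2l2a beside Hoxda rose by 0.52 (edgeR adjusted p = 0.0104). The others that rose were tax1bp1b and cbx3b beside Hoxab, nbr1a beside Hoxbb, mfsd5 beside Hoxca and rbms2a beside Hoxcb.

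Markers of the tissues that express Hox genes were read beside these results, as summed CPM of 5 names each. The sums of neural markers were higher in 3etv, with no overlap. Of all genes taken singly, 42.9% did not overlap, in either direction. The counts of markers that rose stand beside 12.6% of all genes called higher. Neuronal markers summed to between 987 and 1137 CPM in 3etv and between 835 and 973 CPM in WT, and 2 of 5 rose. Most of that sum was elavl3, which overlapped between the groups and was not called (edgeR adjusted p = 0.179). Neural progenitor markers summed to between 986 and 1088 CPM in 3etv and between 814 and 905 CPM in WT, and 2 of 5 rose. Spinal cord and hindbrain factors summed to between 144 and 159 CPM in 3etv and between 108 and 119 CPM in WT, and 3 of 5 rose. Their part in the higher values of hoxa4a, hoxb5b and hoxc6b was not tested. Nor was it tested for the other genes of groups 1 to 8, which changed in both directions and were not called.

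The summed CPM of mesoderm, tailbud, fin bud and cloaca markers overlapped between the groups. Paraxial mesoderm markers summed to 96.3, 103 and 83.2 CPM in 3etv, against 93.2, 132 and 122 CPM in WT, with mutant embryo 3 lowest. Tailbud markers summed to 42.4, 51.9 and 43.4 CPM in 3etv, against 45.1, 56.7 and 54.3 CPM in WT, with both wnt8a entries at 0. In neither list did edgeR call a gene, and none had an unadjusted p under 0.05. Their median log2 fold changes were -0.32 for paraxial mesoderm and -0.28 for tailbud, against -0.0068 over all tested genes. Every tested gene of both lists lay below 0, with fgf8a nearest to it at -0.01. The fin bud and cloaca lists that follow had medians of -0.11 and -0.06. Fin bud and lateral plate markers summed to between 57.0 and 59.0 CPM in 3etv and between 55.1 and 63.5 CPM in WT, with none called and 1 lower at an unadjusted p under 0.05. Cloaca and pronephros markers summed to between 89.5 and 106 CPM in 3etv and between 90.7 and 107 CPM in WT, with the second evx1 entry at 0. In that list the pronephric genes slc12a3 and cdh17 fell, by 1.05 and 0.58 on the log2 scale, and gata3 rose by 0.33. Of all genes, 13.5% were called lower and 12.6% higher, and with 5 tested entries nothing is read from these counts. The other tested members, pax2a at 0.14 and an evx1 entry at -0.06, were not called. The call of cdh17 was lost without mutant embryo 1, WT embryo 2 or WT embryo 3 (edgeR adjusted p between 0.0603 and 0.0804). That of gata3 was lost without any 1 embryo other than WT embryo 2 (between 0.0548 and 0.173), with library totals (0.0934) and with the replicate block (0.0601). The part of these tissues in the lower values of the posterior Hox genes was not tested.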

How the data were processed

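The authors deposited raw read counts per Ensembl gene with symbols, 1 column for each of the 6 embryos. STAR, HTSeq and the build GRCz11 are named in the submitters' processing notes; versions, annotation and the strand setting in counting are not given in the sources used here. Per the labels' protocols, libraries were poly-A selected and strand specific. Summary lines for reads in no gene, in several genes or aligned to several places (60.1% to 61.1% of the entries per library) were left out of totals and tests.

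The deposited counts went unchanged into R 4.3.3, with edgeR 4.0.16 (filterByExpr, TMM factors, quasi-likelihood test on genotype, two-sided) over all genes. CPM values were computed here from the deposited counts. SE was taken from the log2 fold change and the F statistic, as their quotient after taking the root of F. Alternatives used DESeq2 1.42.0, limma 3.58.1 (voom), other scaling and filters, a replicate block and each embryo left out; thinning to the smallest library was added after seeing the data. A floor of 3 counts is 0.117 to 0.177 CPM, for counting error only. Within groups no libraries agreed within sampling noise (chi-square per degree of freedom 6.32 to 49.0). The tests were checked on simulated data with few changed genes, each with a mean of at least 50 counts. All changed by the same factor, larger than that of every Hox gene here but hoxd13a. Smaller changes, and genes of fewer counts such as hoxd13a, were not covered by that check. Neighbouring and overlapping genes came from RefSeq's GRCz12tu table, with no coordinates printed.

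The members, lists and tests were chosen with earlier results of these data known. Every member was measured. Those called are given in full, and genes of other lists are named where called, apart from the neural markers. Genes that just missed the threshold, other members given singly, evx2 and eve1 were picked after their values were seen.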

Additional observations from a re-analysis of the deposited data

How the results depend on the processing

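Against 3 Hox genes called higher and 2 lower by edgeR, the count called lower was 4 with library totals, 5 with no low-count filter, 1 with a mean of at least 50 counts (a filter that hoxd13a and 1 other member did not pass) and 4 with the DESeq2 Wald test. At an adjusted p under 0.01 there were 1 higher and 1 lower, and 2421 of 19889 genes were called in place of 5178. Leaving out 1 embryo gave 1 to 5 higher and 1 to 4 lower. The 5 came without mutant embryo 1; 1 higher was left without mutant embryo 2 or 3 or WT embryo 1 or 3. Of the genes lower, 4 came without mutant embryo 2 or WT embryo 1, and 1 without mutant embryo 3 or WT embryo 3. Calls over all genes fell as well, from 26.0% with every embryo to between 17.1% and 24.0% with 1 left out. They were fewest without mutant embryo 3 (17.1%), WT embryo 3 (17.3%) or mutant embryo 2 (18.4%). With library totals 1 Hox cofactor was called lower.

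Library totals moved the median of all genes to -0.082; the median was then -0.38 for groups 9 to 13, 0.05 for groups 1 to 4 and 0.12 for groups 5 to 8. Over all settings the median of groups 9 to 13 stayed below 0 and those of the other groups above 0. Signs turned for members near 0, none of them called: with library totals to -0.072 for hoxc1a, -0.057 for hoxc4a and -0.031 for hoxa9a, and after thinning to -0.0051 for hoxc1a and -0.034 for hoxc4a. With 1 embryo left out, log2 fold changes ran from -0.10 to 0.17 for hoxc1a, -0.075 to 0.26 for hoxb2a, -0.032 to 0.10 for hoxc4a, -0.14 to 0.13 for hoxc5a, -0.17 to 0.057 for hoxb7a, -0.016 to 0.085 for hoxa9a, -0.22 to 0.10 for hoxa9b, -0.099 to 0.067 for hoxc9a, -0.28 to 0.0079 for hoxc10a, -0.25 to 0.040 for hoxd10a, -0.35 to 0.051 for hoxc12b and -0.15 to 0.040 for hoxa13b. The cause was not tested. Of 928 values of 62 named genes under all alternatives, 857 kept their direction and side of the threshold, 28 lost and 17 gained a call, and 26 turned sign. The flanking genes other than evx2 were not followed in this way.

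The shared title numbers mark different embryos, and same-numbered embryos did not deviate together (correlations of -0.07, 0.09 and -0.11). With the number as a replicate block, 4723 genes were called, 4559 of them shared with the fit without it, and 3 Hox genes were called higher and 3 lower. With 3 single embryos a group, small changes in genes of few counts, such as those of groups 11 to 13, were not resolved.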
